A study of Mus musculus with 6 samples.

Results

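The 6 genes described here encode subunits of the phagocyte-type NADPH oxidase or the small GTPases that switch it on: *Cybb*, *Cyba*, *Ncf1*, *Ncf4*, *Rac1* and *Rac2*. They are 6 of the 19505 genes measured by microarray in regulatory T (Treg) cells, and they were named as a family and then set between the 3 *Rbx1*&*Sag*-deficient and the 3 control arrays. Because this same comparison chose them, their differences are given as a description, and no p-value is given for them.

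The *Rbx1*&*Sag*-deficient Treg cells came from *Foxp3* Cre/wt female mice that were also *Rbx1* fl/fl and *Sag* fl/fl, in which a Cre recombinase driven from *Foxp3* removes both RING subunits of the cullin-RING ubiquitin ligases. The control Treg cells came from *Foxp3* Cre/wt females, which carry the same Cre allele but no floxed gene. *Foxp3* lies on the X chromosome, so that females of both groups also hold Treg cells without Cre, and the study made them to avoid inflammation. Mice of 8 to 12 weeks were used, CD4+YFP+ cells were sorted from peripheral lymph nodes and spleens, and cells of 2 to 3 mice were pooled for each array. The pools are the replicates, 3 a group. SDs describe the spread between them, and standard errors and p-values from limma also draw on the variance of all genes. The sample titles hold the word muscle although the stated cell type is Treg. In bulk RNA of this kind, fewer cells of a type and less RNA per cell cannot be told apart. *Rbx1* itself, a targeted gene, read 5.04, 5.53 and 5.84 in *Rbx1*&*Sag*-deficient arrays, against 9.26, 10.08 and 9.80 in control arrays. *Rnf7*, the symbol of *Sag*, read 10.94, 11.39 and 9.65 in *Rbx1*&*Sag*-deficient arrays, against 11.47, 11.29 and 10.93 in control arrays. The *Rnf7* values overlapped, and whether its probe set lies in the deleted part is not stated. All values are log2 signals, so that 1 unit is a doubling, and levels of different genes are not compared because each probe set has its own brightness.

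This oxidase moves an electron from NADPH across a membrane to oxygen and so makes superoxide, the parent of other reactive oxygen species. Its membrane core is a pair of chains, the catalytic gp91phox (*Cybb*, also called Nox2) and its partner p22phox (*Cyba*). At rest cytosolic subunits, among them p47phox (*Ncf1*) and p40phox (*Ncf4*), stay apart from the core, and they join it after phosphorylation and after a Rac GTPase has loaded GTP. The complex is best known from neutrophils and macrophages, where it kills microbes, and lymphocytes hold it at lower levels.

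Of the 6 genes, *Cybb* differed by far the most. It read 4.16, 4.48 and 3.49 in *Rbx1*&*Sag*-deficient Treg cells, against 9.37, 9.45 and 8.84 in control Treg cells. The brightest *Rbx1*&*Sag*-deficient array thus lay 4.36 below the dimmest control array. The means were 4.04 ± 0.51 (SD, n = 3) in *Rbx1*&*Sag*-deficient and 9.22 ± 0.33 (SD, n = 3) in control Treg cells, a log2 difference of -5.18 (standard error, SE, 0.30), or a signal 36.2-fold lower. SEs here are from limma, which draws the variance of each gene towards that of all genes. They can differ from SEs of the 3 arrays a group alone. Only 5 of the 19505 genes had a lower difference. The *Rbx1*&*Sag*-deficient values were near the median gene of their arrays, which was 4.28, 4.16 and 4.34. Signals of that size are close to what unexpressed genes give on such arrays, so the fold is limited by background and no level of *Cybb* can be read there.

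The window before the *Cybb* start site is shown because it is the stretch whose candidate regulators are measured on the same arrays, and those of *Cyba* and *Ncf1* are shown to compare with it. The 250 bases upstream of each start site are from RefSeq on GRCm38.p6, and 3 of the 6 genes had an entry. All 3 lie on the minus strand, *Cybb* at chrX:9469325-9469574, *Cyba* at chr8:122432941-122433190 and *Ncf1* at chr5:134229626-134229875, and each is written along the gene. Capitals mark matches on either strand to 5 searched motifs. Of these, GGAA is the core bound by ETS factors, and GAGGAA is a form that PU.1 prefers, which contains GGAA. The interferon regulatory factor motif is GAAA repeated after any 2 bases. TGANTCA is an AP-1-like pattern that allows any middle base, and the last motif is CCAAT.
Cybb: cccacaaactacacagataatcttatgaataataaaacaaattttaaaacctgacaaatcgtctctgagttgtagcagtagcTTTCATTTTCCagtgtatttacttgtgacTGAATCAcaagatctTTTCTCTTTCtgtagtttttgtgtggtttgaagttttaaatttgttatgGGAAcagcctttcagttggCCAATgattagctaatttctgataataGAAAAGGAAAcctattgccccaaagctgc
Cyba: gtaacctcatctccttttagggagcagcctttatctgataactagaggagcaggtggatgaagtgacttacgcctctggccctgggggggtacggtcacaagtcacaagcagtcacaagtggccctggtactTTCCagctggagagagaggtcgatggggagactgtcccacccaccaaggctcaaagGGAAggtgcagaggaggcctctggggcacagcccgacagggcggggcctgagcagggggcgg
Ncf1: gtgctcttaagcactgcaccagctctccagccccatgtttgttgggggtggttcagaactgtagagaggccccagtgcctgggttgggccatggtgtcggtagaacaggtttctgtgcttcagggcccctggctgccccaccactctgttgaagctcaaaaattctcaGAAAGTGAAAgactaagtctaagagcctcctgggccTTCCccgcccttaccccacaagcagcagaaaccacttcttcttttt

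The *Cybb* window held 3 matches to the interferon regulatory factor motif, starting at -168, -124 and -29 from the start site, and 2 of them overlapped a GGAA match. *Ncf1* held 1, at -82, and *Cyba* none. This motif occurred at least once in 2.98% of 32851 promoter windows of the same length, and 3 or more times in 4 windows. *Cybb* is poor in G and C (34% against a median of 52.4%), and among 3013 windows within 5 percentage points of it, 5.31% held the motif. *Cybb* also had 1 TGANTCA match (6.75% of windows), at -139, and 1 CCAAT match (33.8% of windows), at -56. GGAA was found 3 times in *Cybb*, 2 times in *Cyba* and 1 time in *Ncf1*, and it is in 93.4% of windows. GAGGAA, which is in 23.3% of windows, was in none of the 3. A match is a run of letters and not a site shown to be bound.

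*Cyba*, whose product holds gp91phox in the membrane and gives p47phox a place to dock, was also lower, by much less. It read 11.45, 11.68 and 11.08 in *Rbx1*&*Sag*-deficient Treg cells, against 12.59, 12.88 and 12.52 in control Treg cells. The groups did not overlap and were 0.84 apart, with means of 11.40 ± 0.30 (SD, n = 3) in *Rbx1*&*Sag*-deficient and 12.66 ± 0.19 (SD, n = 3) in control Treg cells. The log2 difference was -1.26 (SE 0.24). Within each array the *Cybb* signal relative to *Cyba* was lower by 3.92 in the *Rbx1*&*Sag*-deficient group, with an SD of this ratio of 0.20 in the *Rbx1*&*Sag*-deficient and 0.23 in the control group. Since *Cybb* was near background in the *Rbx1*&*Sag*-deficient group, the size of this ratio is limited in the same way as its fold.

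The cytosolic subunits divided. *Ncf4*, whose p40phox binds phosphatidylinositol 3-phosphate on endosomes and phagosomes, read 11.00, 10.96 and 11.12 in *Rbx1*&*Sag*-deficient Treg cells, against 12.70, 12.97 and 12.49 in control Treg cells. Its 3 *Rbx1*&*Sag*-deficient values lay within 0.16 of each other and all stood 1.37 or more below the control values. The means were 11.03 ± 0.08 (SD, n = 3) in *Rbx1*&*Sag*-deficient and 12.72 ± 0.24 (SD, n = 3) in control Treg cells, a difference of -1.69 (SE 0.22). *Ncf4* was thus the second largest difference of the 6, though 575 of all genes had a lower one.

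*Ncf1*, the organiser p47phox that carries the other cytosolic subunits to the membrane, read 6.21, 6.33 and 7.09 in *Rbx1*&*Sag*-deficient Treg cells, against 6.79, 6.98 and 6.98 in control Treg cells. *Rbx1*&*Sag*-deficient replicate 3 was above every control array, so the groups overlapped. The difference of -0.37 (SE 0.27) was smaller than the SD of 0.48 among *Rbx1*&*Sag*-deficient arrays, and it was -0.65 without replicate 3 of that group. It turned to 0.23 after quantile normalization, 0.12 after cyclic loess and 0.22 after centring on the brighter genes. Within arrays, *Ncf4* relative to *Ncf1* was lower by 1.32 in the *Rbx1*&*Sag*-deficient group, with an SD of 0.40 in the *Rbx1*&*Sag*-deficient and 0.26 in the control group.

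**Figure D1:**
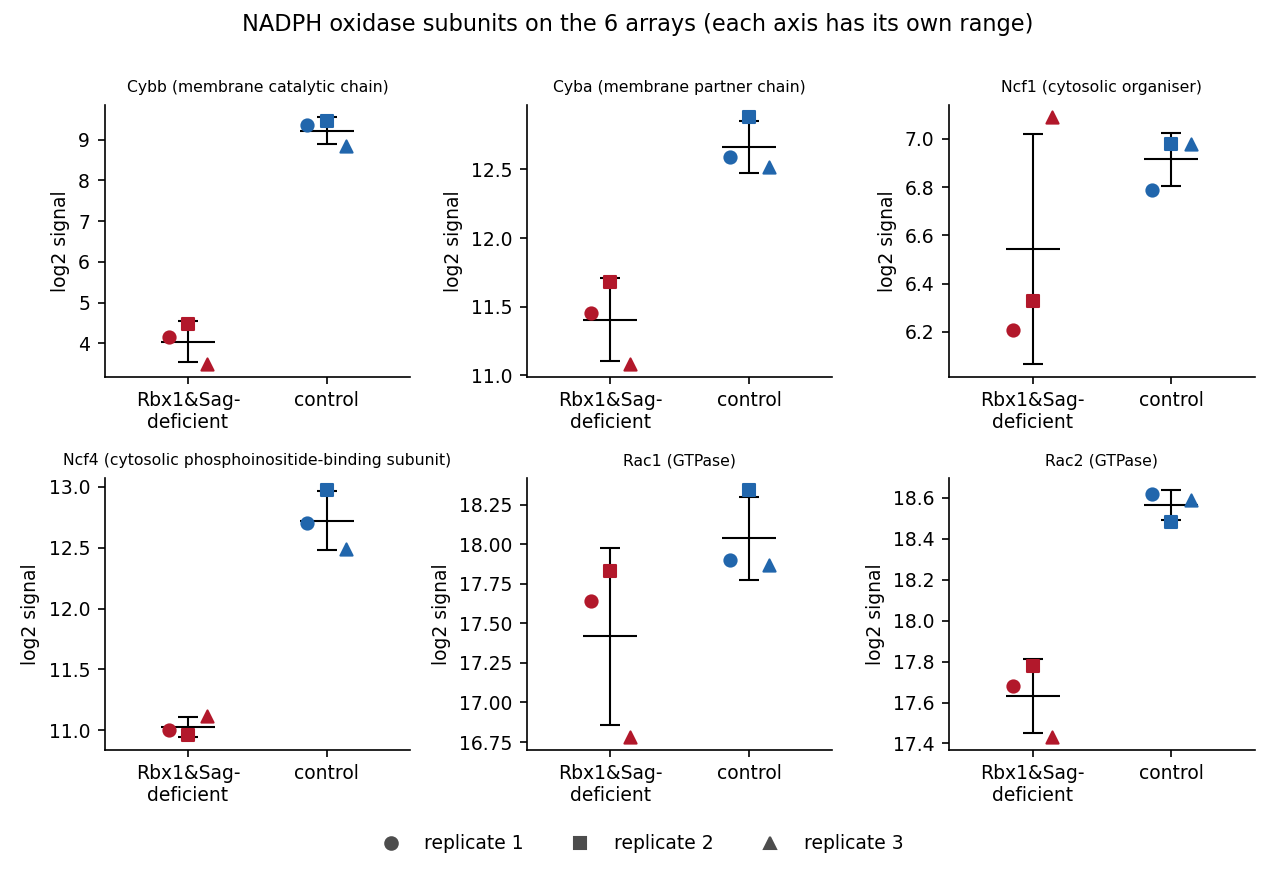
Log2 signal of the 6 NADPH oxidase subunit genes on each array (y axis, a separate log2 scale for each gene), with the 3 *Rbx1*&*Sag*-deficient arrays left of the 3 control arrays. Points are arrays, lines are group means and bars are the SD. The groups are apart for every gene but *Ncf1*, by 4.36 for *Cybb* and by only 0.04 for *Rac1*.

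The 2 Rac GTPases read 16.78 or more on every array. *Rac2*, the Rac of blood cells, read 17.68, 17.78 and 17.43 in *Rbx1*&*Sag*-deficient Treg cells, against 18.62, 18.48 and 18.59 in control Treg cells. Its groups were 0.70 apart, with means of 17.63 ± 0.18 (SD, n = 3) in *Rbx1*&*Sag*-deficient and 18.56 ± 0.07 (SD, n = 3) in control Treg cells and a difference of -0.93 (SE 0.21). *Rac1*, which nearly all cells make, read 17.64, 17.83 and 16.78 in *Rbx1*&*Sag*-deficient Treg cells, against 17.90, 18.34 and 17.87 in control Treg cells. Its groups were apart by only 0.04, and much of the difference of -0.62 (SE 0.31) came from *Rbx1*&*Sag*-deficient replicate 3, without which it was -0.30. *Rac2* relative to *Rac1* within an array was lower by 0.31 in the *Rbx1*&*Sag*-deficient group, less than the SD of this ratio (0.38 in the *Rbx1*&*Sag*-deficient and 0.33 in the control group).

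Between the groups, 5 of the 6 genes did not overlap and were lower in *Rbx1*&*Sag*-deficient Treg cells. Of all genes, 19.7% lay without overlap on the lower side and 15.2% on the higher side. Nothing is read from the 5 of 6, since the genes were chosen on this contrast, and the subunits are given no call for the same reason. At an adjusted p under 0.05 from limma, fitted over all genes, 9.49% of all genes were called lower and 2.70% higher. *Rbx1*&*Sag*-deficient replicate 3 was the lowest array of all 6 for *Cybb*, *Cyba*, *Rac1* and *Rac2*, but the highest of its group for *Ncf1* and *Ncf4*. The genes lie on 4 chromosomes (X for *Cybb*, 8 for *Cyba*, 5 for *Ncf1* and *Rac1*, 15 for *Ncf4* and *Rac2*). Of the 36 measured genes nearest to them, 3 on each side of each gene, 6 fell and 0 rose by limma (adjusted p under 0.05), with a median log2 difference of -0.34.

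The size of each difference depended on how the arrays were put on one scale. Upper quartiles of the deposited signals were 7.11, 7.37 and 6.93 on *Rbx1*&*Sag*-deficient arrays, against 7.68, 7.81 and 7.73 on control arrays, so that bright genes as a whole read lower in the *Rbx1*&*Sag*-deficient group. When arrays were centred on their brighter genes, the median of all genes moved to 0.64, against 0.04 as deposited. Calls over all genes were 527 higher and 1851 lower as deposited, 535 higher and 733 lower after quantile normalization, 631 higher and 876 lower after cyclic loess, and 6966 higher and 910 lower after centring on the brighter genes. *Cybb* then stood at -4.58, *Ncf4* at -1.10, *Cyba* at -0.67 and *Rac2* at -0.34. *Rac1* was at -0.03. Quantile and cyclic loess normalization gave *Rac2* -0.69 and -0.73, and *Cyba* -0.82 and -0.78. The order *Cybb*, *Ncf4*, *Cyba*, *Rac2* from largest to smallest was the same as deposited and in these 3 scalings. As deposited, *Ncf4* and *Cyba*, and *Cyba* and *Rac2*, lay less than the sum of their limma standard errors apart. Errors from the arrays of each gene alone were not used for this.

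**Figure D2:**
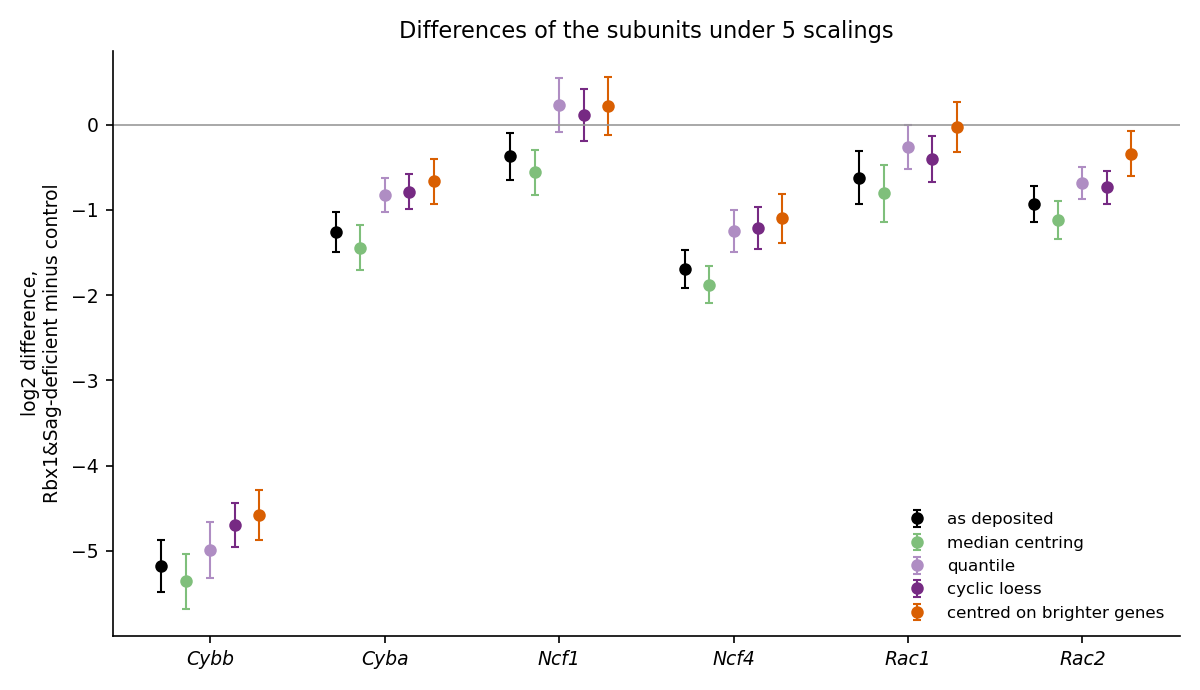
Log2 difference, *Rbx1*&*Sag*-deficient minus control (y axis), of the 6 NADPH oxidase subunit genes under the deposited scale and the other scalings of the same 6 arrays. Points are differences and bars are standard errors from limma. *Cybb* lies between -5.36 and -4.58 in all of them, whereas *Ncf1* crosses 0 and *Rac1* comes as near to it as -0.03.

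The rest of the pathway was measured through 148 listed genes, of which 132 were on the arrays with a symbol. By limma, 21 of the 132 fell in *Rbx1*&*Sag*-deficient Treg cells (15.9%, against 9.49% of all genes) and 2 rose (1.52%, against 2.70%). Their median log2 difference was -0.22, against 0.04 over all genes. The median was 0.37 and the split 13 lower and 26 higher when arrays were centred on the brighter genes. Among genes above the median signal only, 21 of 96 pathway genes fell, against 1947 of 9747 genes. These shares were close, as were the medians, at -0.44 for pathway genes and -0.40 for all such genes. Without control replicate 1, 2 or 3, only 10, 7 or 8 of the 132 were called lower, and none higher. Without *Rbx1*&*Sag*-deficient replicate 1, 2 or 3 there were 15, 27 or 18 lower and 1, 4 or 0 higher. Only 6 of the 21 (*Cybc1*, *Rhoh*, *Tiam1*, *Glrx*, *Prdx2* and *Txnrd2*) were called in each of 15 other limma fits.

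Of the partners of the membrane core, *Cybc1* fell most. Its product is a chaperone of the endoplasmic reticulum that the gp91phox and p22phox pair needs to mature. *Cybc1* read 7.09, 7.34 and 7.01 in *Rbx1*&*Sag*-deficient Treg cells, against 8.68, 9.32 and 8.37 in control Treg cells, and fell by 1.64 (SE 0.28, limma adjusted p = 0.00829). Every *Rbx1*&*Sag*-deficient array was more than 1 unit below every control array. *Hvcn1*, the proton channel that balances the charge the oxidase moves, read 5.91, 6.38 and 6.06 in *Rbx1*&*Sag*-deficient Treg cells, against 6.01, 6.76 and 6.07 in control Treg cells, with overlap. *Rap1a*, a small GTPase that copurifies with the core, had a difference of -0.91 (SE 0.27, limma adjusted p = 0.058). *Noxa1*, an oxidase activator, fell by 1.16 (SE 0.25, limma adjusted p = 0.0187). It was dim, at 2.89, 2.95 and 3.47 in *Rbx1*&*Sag*-deficient against 4.01, 4.39 and 4.40 in control Treg cells. The *Noxa1* call was lost without *Rbx1*&*Sag*-deficient replicate 1 (adjusted p = 0.0539) and without control replicate 2 (0.0906) or 3 (0.0849), and after centring on the brighter genes (-0.57, 0.141), from limma. The list of organisers, activators and chaperones thus had 2 of 6 lower and 0 higher, with a median of -0.54, which turned to 0.06 with 1 higher and 1 lower after centring on the brighter genes.

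The other catalytic chains of the oxidase family were dim in both groups. *Nox1*, *Nox3*, *Nox4* and *Duox1*, the 4 measured catalytic chains, lay between 2.41 and 3.98 on every array, below the median gene of the array. None passed the test, and their median difference was 0.28. After centring on the brighter genes it was 0.88 and 3 of the 4 were called higher, where 6966 of all genes were. *Duox1*, which makes hydrogen peroxide in epithelia, had the largest difference of them, with 3.98, 3.62 and 3.47 in *Rbx1*&*Sag*-deficient Treg cells against 3.12, 3.21 and 3.26 in control Treg cells (limma adjusted p = 0.169).

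Some other small GTPases were lower too. *Rhoh*, a blood cell GTPase that does not split GTP and acts in T cell receptor signalling, read 10.12, 10.68 and 9.74 in *Rbx1*&*Sag*-deficient Treg cells, against 11.92, 12.09 and 12.02 in control Treg cells. It fell by 1.83 (SE 0.27, limma adjusted p = 0.00451), and its groups were far apart. *Rhoa*, which drives contraction of the actin skeleton, fell by 1.24 (SE 0.24, limma adjusted p = 0.0125), a call lost without control replicate 2 (0.0688) or 3 (0.0535) and after centring on the brighter genes (0.0603). *Cdc42*, the polarity GTPase that can compete with Rac for partners, had 17.34, 17.09 and 16.54 in *Rbx1*&*Sag*-deficient against 17.78, 17.94 and 17.88 in control Treg cells (difference -0.88, limma adjusted p = 0.0529).

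Exchange factors load Rac with GTP. Of 26 measured, 2 fell and 1 rose, and their median was -0.18, with the sign turned to 0.29 after quantile normalization, 0.28 after cyclic loess and 0.41 after centring on the brighter genes. *Tiam1*, a Rac exchange factor of T cells, had the largest difference of the list. It read 7.14, 7.27 and 6.97 in *Rbx1*&*Sag*-deficient Treg cells, against 9.26, 9.94 and 9.83 in control Treg cells, and fell by 2.55 (SE 0.25, limma adjusted p = 0.00071). *Vav1*, the main exchange factor below the T cell receptor, read 11.45, 11.50 and 11.19 in *Rbx1*&*Sag*-deficient Treg cells, against 11.38, 11.52 and 11.42 in control Treg cells. *Dock2*, which drives Rac in lymphocyte migration, read 15.02, 15.95 and 15.64 in *Rbx1*&*Sag*-deficient Treg cells, against 15.51, 15.37 and 15.80 in control Treg cells. The groups overlapped for both genes, with differences of -0.06 (SE 0.21) for *Vav1* and -0.02 (SE 0.28) for *Dock2*. *Farp2* fell by 1.49 (limma adjusted p = 0.0123), a call lost without control replicate 1 (0.0523). *Dock3* rose by 0.91 among dim signals (limma adjusted p = 0.0439), and lost its call without *Rbx1*&*Sag*-deficient replicate 1 or 3 or any 1 control replicate (adjusted p of 0.0544 to 0.177), and after median centring (0.067), quantile normalization (0.0949), cyclic loess (0.0806) and with the replicate block (0.054).

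Of 16 negative regulators, which keep Rac off or in the cytosol, 3 fell and 0 rose (median -0.27, but 0.32 after centring on the brighter genes). *Arhgdib*, the GDP dissociation inhibitor of blood cells, read 18.61, 18.52 and 18.14 in *Rbx1*&*Sag*-deficient Treg cells, against 18.89, 18.96 and 18.72 in control Treg cells (difference -0.43, limma adjusted p = 0.224). Its relative *Arhgdia* was not analysed here. *Chn2*, a GTPase-activating protein for Rac, fell by 1.53 (limma adjusted p = 0.0154), a call lost without control replicate 1 (0.0673) or 2 (0.0789) and after quantile normalization (0.0682). Of 19 Rac effectors 1 fell and 1 rose, with a median of -0.17, which turned to 0.42 with 2 higher and 1 lower after centring on the brighter genes. *Nckap1*, of the complex through which Rac drives branched actin, read 4.34, 3.21 and 3.79 in *Rbx1*&*Sag*-deficient Treg cells, against 5.07, 6.03 and 5.67 in control Treg cells. It fell by 1.81 (limma adjusted p = 0.0128), and lost its call without control replicate 2 (0.067) or 3 (0.0609). *Nckap1* was dim, near or below the median gene in *Rbx1*&*Sag*-deficient arrays. Its relative *Nckap1l*, picked after its values were seen, was brighter and was not called (difference -0.45, limma adjusted p = 0.205). It read 10.71, 10.68 and 11.04 in *Rbx1*&*Sag*-deficient against 11.41, 11.28 and 11.08 in control Treg cells. *Abi3*, of the same complex, rose by 0.83 (limma adjusted p = 0.0413), and its adjusted p was 0.0841 after median centring, 0.0552 with the replicate block, 0.0874 with an intensity trend and 0.0503 to 0.152 without *Rbx1*&*Sag*-deficient replicate 2 or 3 or any 1 control replicate.

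**Figure D3:**
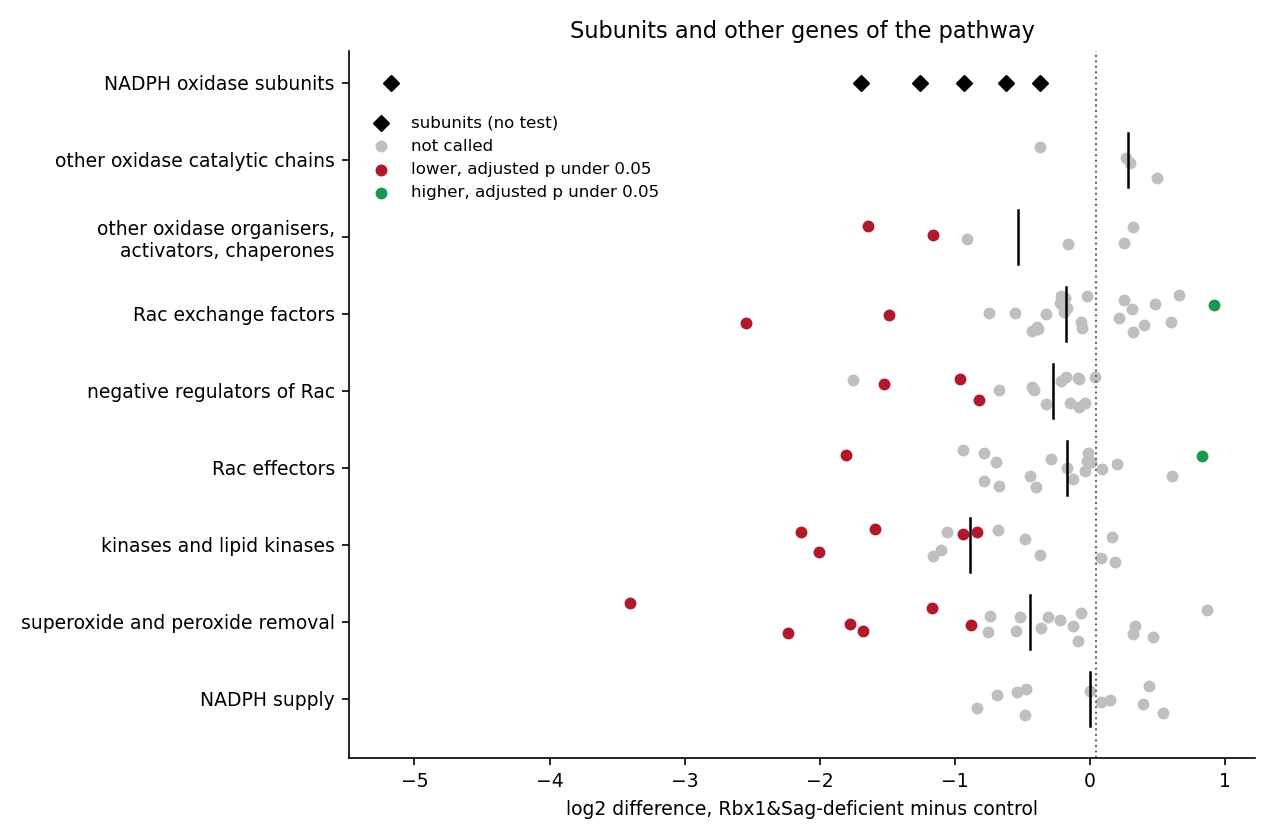
Log2 difference, *Rbx1*&*Sag*-deficient minus control, of each measured gene of the NADPH oxidase pathway lists drawn, with the 6 subunits in a row of their own and without a test. Vertical lines are list medians, the dotted line is the median of all genes (0.04), and colours mark genes that were lower, higher or not called at an adjusted p under 0.05 from limma. Lower calls lie mostly among the kinases (5 of 14) and the genes of superoxide and peroxide removal (6 of 20). Of all genes 9.49% were called lower, and 1947 of 9747 among those above the median signal. After quantile normalization 1 of the 14 and 4 of the 20 were lower.

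The kinases and lipid kinases that act on the cytosolic subunits had 5 of 14 lower, 0 higher and a median of -0.89. The median stayed below 0 in each scaling tried (from -1.07 to -0.30), with 1 lower call after quantile normalization and 2 after cyclic loess. Centring on the brighter genes gave 3 lower and 1 higher. *Pik3cg*, the catalytic chain of the lipid kinase PI3K gamma, read 8.61, 9.01 and 7.20 in *Rbx1*&*Sag*-deficient Treg cells, against 10.28, 10.41 and 10.56 in control Treg cells, and fell by 2.14 (SE 0.42, limma adjusted p = 0.0137). *Pik3r4*, a partner of the kinase that makes the lipid p40phox binds, read 5.95, 5.51 and 4.07 in *Rbx1*&*Sag*-deficient Treg cells, against 6.87, 7.38 and 7.29 in control Treg cells, and fell by 2.00 (limma adjusted p = 0.0207). *Rbx1*&*Sag*-deficient replicate 3 was lowest for both. Protein kinase C isoforms phosphorylate p47phox. *Prkca* fell by 1.59 (limma adjusted p = 0.0261) and *Prkcz* by 0.94 (limma adjusted p = 0.0279). All 4 calls were lost when any 1 control replicate was left out, at adjusted p of 0.0513 to 0.123 from limma. Those of *Prkca* (0.069) and *Prkcz* (0.0713) were also lost without *Rbx1*&*Sag*-deficient replicate 1. Quantile normalization ended the calls of *Pik3r4* (0.102), *Prkca* (0.06) and *Prkcz* (0.0683), cyclic loess those of *Prkca* (0.0539) and *Prkcz* (0.0624), and centring on the brighter genes that of *Prkcz* (0.336).

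Among 20 genes whose products remove superoxide and peroxides, 6 fell and 0 rose, with a median of -0.44, which turned to 0.15 with 4 lower and 4 higher after centring on the brighter genes. *Glrx*, a glutaredoxin that takes glutathione off protein thiols, had the largest difference of all 132 pathway genes. It read 7.79, 7.52 and 6.94 in *Rbx1*&*Sag*-deficient Treg cells, against 10.53, 11.34 and 10.60 in control Treg cells, and fell by 3.41 (SE 0.31, limma adjusted p = 0.000611). *Prdx2*, a cytosolic peroxiredoxin, read 11.25, 11.18 and 11.09 in *Rbx1*&*Sag*-deficient Treg cells, against 12.69, 13.17 and 13.00 in control Treg cells, and fell by 1.78 (SE 0.22, limma adjusted p = 0.00209). *Txnrd2*, the mitochondrial thioredoxin reductase, fell by 2.24 (SE 0.35, limma adjusted p = 0.0063). The groups were well apart for these 3 genes. *Ccs*, the copper chaperone of superoxide dismutase, fell by 1.68 (limma adjusted p = 0.0141), a call lost without control replicate 2 (0.0743) or 3 (0.0684). *Sod1* itself, the cytosolic superoxide dismutase, read 13.35, 13.96 and 13.54 in *Rbx1*&*Sag*-deficient Treg cells, against 13.33, 13.43 and 13.15 in control Treg cells, and *Cat*, catalase, 13.11, 13.43 and 12.48 in *Rbx1*&*Sag*-deficient against 13.67, 13.48 and 13.52 in control Treg cells. These 2 were picked after their values were seen. The 11 genes of NADPH supply, the fuel of the oxidase, held no called gene, and their median was -0.0033. With centring on the brighter genes 3 of them were called higher.

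Of 6 factors known, mostly from human myeloid cells, to act on the *Cybb* promoter, 2 fell. *Spi1*, the ETS factor PU.1 of myeloid and B cells, read 2.82, 3.78 and 3.61 in *Rbx1*&*Sag*-deficient Treg cells, against 4.66, 6.25 and 5.61 in control Treg cells. It fell by 2.10 (SE 0.41, limma adjusted p = 0.0141), a call lost without control replicate 2 (0.0619) or 3 (0.0644). *Irf2*, an interferon regulatory factor, read 10.73, 11.16 and 10.57 in *Rbx1*&*Sag*-deficient Treg cells, against 12.29, 12.11 and 12.16 in control Treg cells, and fell by 1.37 (SE 0.23, limma adjusted p = 0.00829). It was called lower in all 15 other limma fits. *Irf1*, of the same family, lay the other way, with 14.57, 15.05 and 14.31 in *Rbx1*&*Sag*-deficient against 14.01, 13.99 and 13.63 in control Treg cells. Its difference of 0.77 did not pass the test (limma adjusted p = 0.0827) on the deposited scale. It passed after quantile normalization (0.016), cyclic loess (0.0146) and centring on the brighter genes (0.00644), and without *Rbx1*&*Sag*-deficient replicate 3 (0.0473). *Irf8*, which acts in myeloid cells, had a difference of -0.69 (limma adjusted p = 0.0606), and passed after median centring (0.0285), quantile normalization (0.0499) and cyclic loess (0.0444). *Elf1*, an ETS factor of T cells, had a difference of -0.65 (limma adjusted p = 0.118), and the repressor *Cux1* one of 0.22 (limma adjusted p = 0.715). The *Cybb* window printed above holds 3 matches to the motif of the interferon regulatory factors, and binding of any factor was not measured.

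Because *Cybb* and *Spi1* are also genes of phagocytes, markers of other cells were measured beside them. Of 27 myeloid markers 3 fell and 1 rose. The summed linear signal of the 27 was 403.5 to 462.8 in *Rbx1*&*Sag*-deficient and 403.8 to 495.6 in control arrays. Over the 23 not called it was 295.4 to 355.1 in *Rbx1*&*Sag*-deficient and 288.4 to 306.9 in control arrays. The 23 are what was left after the genes called on this same contrast were taken out, so their sum cannot show whether the groups differ. These sums mix probe sets of uneven brightness and members that moved in opposite ways, so they do not measure a share of myeloid cells. On every array, 13 of the 27 were below the median gene, and the other 14 were above it on some array. *Itgam*, *Itgax*, *Cd14*, *Adgre1*, *Csf1r*, *S100a8*, *S100a9*, *Mpo* and *Elane*, picked here from the 27, read 4.84 or less on every array. Of these, *Csf1r* was lower and *Itgam* and *Adgre1* were higher in *Rbx1*&*Sag*-deficient arrays without overlap, and none was called. Others of the 27, also picked, read higher. *Cd300lf* reached 6.96 and *Fcgr3* 5.31 in *Rbx1*&*Sag*-deficient arrays, and *Spi1* reached 6.25 in control arrays. Over the 27, 10 differences were below 0 and 17 above. *Lyz2*, lysozyme of phagocytes, read 3.06, 3.08 and 3.16 in *Rbx1*&*Sag*-deficient Treg cells, against 4.08, 5.59 and 5.35 in control Treg cells (fell by 1.91, limma adjusted p = 0.0133). Its call was lost without control replicate 2 (0.0639) or 3 (0.0654). *Fcer1g*, an Fc receptor chain, fell by 1.17 (limma adjusted p = 0.0324), lost when any 1 control replicate was left out (0.0521 to 0.14) or arrays were centred on the brighter genes (0.162). *Spi1* is the third. *Cd300lf*, an inhibitory receptor of phagocytes, rose by 1.13 (limma adjusted p = 0.0284), lost when any 1 control replicate was left out (0.0662 to 0.117). The part of myeloid cells in the *Cybb* difference was not tested.

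Of 11 T cell and Treg markers, 7 fell (*Cd3d*, *Cd3g*, *Cd4*, *Ikzf2*, *Tnfrsf18*, *Tnfrsf4* and *Izumo1r*) and 0 rose. Their summed signal was 393300 to 623100 in *Rbx1*&*Sag*-deficient and 930000 to 1043000 in control arrays, without overlap, and all 11 were above the median gene on some array. This sum is on the deposited scale, where bright genes as a whole read lower in the *Rbx1*&*Sag*-deficient group. It weighs the brightest probe sets most and does not measure a share of T cells. *Foxp3* was not analysed here. The calls of *Cd3d*, *Cd3g*, *Cd4* and *Tnfrsf18* were lost when any 1 control replicate was left out (adjusted p of 0.0603 to 0.163 from limma). They were also lost without *Rbx1*&*Sag*-deficient replicate 1 (*Cd3d*, *Cd3g*, *Tnfrsf18*), 2 (*Cd3g*, *Cd4*) or 3 (*Cd3d*, *Cd3g*, *Cd4*), at 0.0536 to 0.105. After quantile normalization, cyclic loess, centring on the brighter genes or the replicate block 4 of the 11 were called lower, with *Cd3d*, *Cd3g* and *Cd4* lost under each (0.0538 to 0.666), and centring on the brighter genes gave a median of -0.33, against -0.93 as deposited. Of 11 B cell markers *Cd79b* fell by 1.81 (limma adjusted p = 0.0018), and the sums were 152.1 to 177.4 in *Rbx1*&*Sag*-deficient and 236 to 258.8 in control arrays. Without *Cd79b* the sums overlapped, at 109.3 to 143.6 in *Rbx1*&*Sag*-deficient and 96.94 to 122 in control arrays, and the median of the 11 was 0.24. *Cd79b* was left out because this same contrast called it, so the overlap of the rest cannot show whether B cells differ. Of 9 CD8 T and NK cell markers *Klrb1c* fell by 2.00 and *Nkg7* fell by 2.84, with sums of 489.2 to 647.4 in *Rbx1*&*Sag*-deficient and 598.8 to 858.8 in control arrays. Of 7 erythroid and platelet markers *Epor* rose by 0.98, a call lost when any 1 control replicate was left out (0.0617 to 0.146) or without *Rbx1*&*Sag*-deficient replicate 3 (0.0621), and after median centring (0.0607), quantile normalization (0.0963) and cyclic loess (0.0765), from limma, with sums of 148.4 to 196.6 in *Rbx1*&*Sag*-deficient and 115.2 to 152.2 in control arrays. No skeletal muscle marker of 10 was called as deposited, and most of them (6) were below the median gene on every array. Their sums were 135.3 to 143.8 in *Rbx1*&*Sag*-deficient and 129.8 to 142.5 in control arrays. After centring on the brighter genes 4 of the 10 were called higher and 0 lower. Centring on the brighter genes gave 10 higher and 2 lower calls of the 27 myeloid, 6 and 1 of the 11 B cell, 1 and 2 of the 9 CD8 T and NK cell, and 4 and 0 of the 7 erythroid and platelet markers. The part of these cells in the results was not tested.

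**Figure D4:**
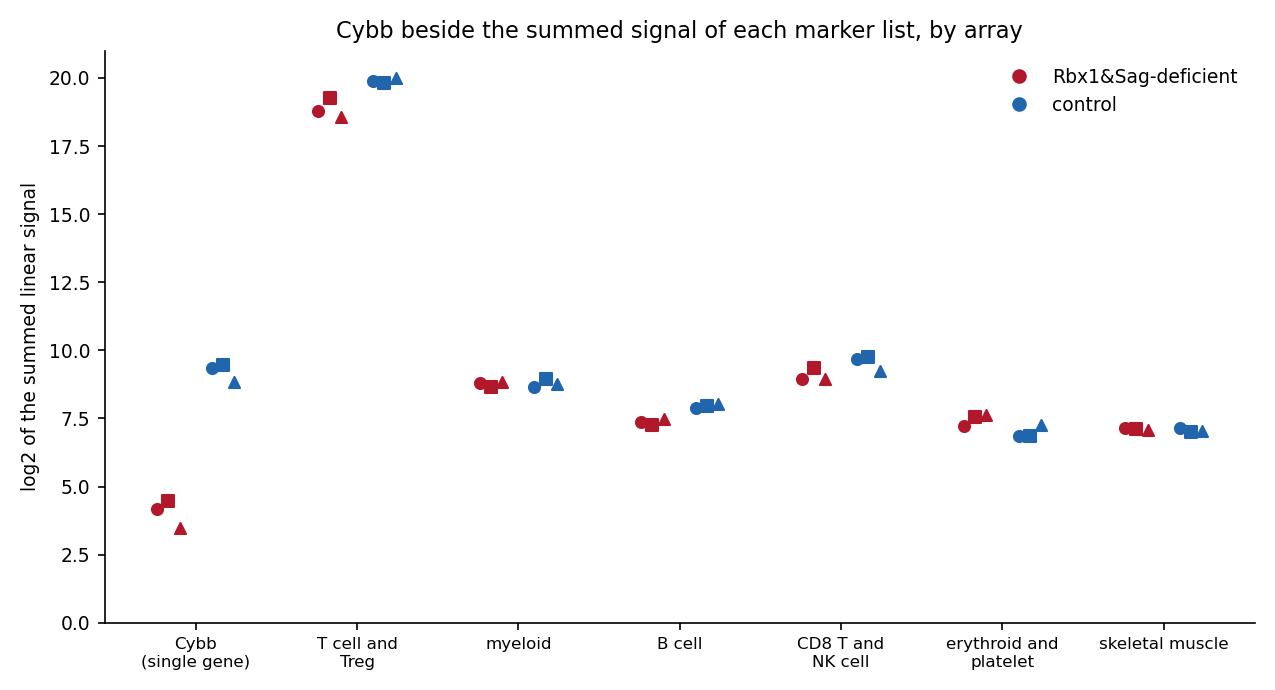
*Cybb* and, for each cell type marker list, the log2 of the summed linear signal (y axis) on each array, *Rbx1*&*Sag*-deficient left of control, with a symbol shape for each replicate number. On the linear scale the T cell and Treg sums are without overlap at 393300 to 623100 in *Rbx1*&*Sag*-deficient and 930000 to 1043000 in control arrays. The myeloid sums overlap. All sums are on the deposited scale and do not measure a share of cells.

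The genes whose 6 array values ran most like those of each subunit were found by the root mean square difference after centring each gene on its mean, as a description over 6 arrays that share the contrast. For *Cybb* these were *Cst7*, a cystatin (0.31), *Csf1*, a macrophage growth factor (0.44), *Cxcr5*, a chemokine receptor (0.44), *Cd200r1*, an inhibitory receptor (0.56), and *Itgb1*, an integrin chain (0.57). All 5 were lower in *Rbx1*&*Sag*-deficient Treg cells, with differences between -5.61 and -4.67. A difference close to that of *Cybb* follows from the way they were picked. For *Ncf4* they were *Pigs* (0.11), *Bcl2a1a* (0.11), *Tnfrsf9* (0.12), *Zfp386* (0.12) and *Zfp280b* (0.12). *Tnfrsf9* encodes a costimulatory receptor, and *Bcl2a1a* has near copies that its probe set could share. *Cyba* ran closest to *Rhoa* (0.03) and *Nadsyn1* (0.05), *Rac2* to *Fam169b* (0.05) and *Fgfr1op2* (0.06), *Rac1* to *Hadha* (0.04) and *Bst2* (0.05), and *Ncf1* to *Ankrd40* (0.05) and *Cd180* (0.09). No subunit was among those listed for another.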

How the data were processed

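RNA of sorted CD4+YFP+ Treg cells was hybridised to Clariom S mouse arrays. The authors made the deposited log2 signals with Affymetrix Expression Console 1.4. The summarisation and normalization method, and whether signals were scaled between arrays, were not given in the sources used here. Array number, 3 a group, limits the precision. Of 22206 probe sets, 19572 had 1 gene symbol in the platform annotation, 2634 had none and 0 had several. For each symbol the probe set brightest over the 6 arrays was kept, leaving 19505 genes. Groups were compared with limma 3.58.1 in R 4.3.3 (lmFit, eBayes, 2-sided, Benjamini-Hochberg over all 19505 genes, adjusted p under 0.05), tested on simulated data. No low-signal filter was used. Same-numbered arrays were checked for pairing, and none was used.

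The subunits and all gene lists were chosen with earlier results of these data known. The genes named are the 6 subunits, the targeted genes, their nearest partners, up to 4 called genes of each pathway list with the smallest p, the factors of the *Cybb* promoter, called markers and the genes most alike in pattern (predicted genes and olfactory receptors left out). Alternatives were other scalings, a filter on dim genes, the mean of probe sets, a replicate block, an intensity trend, array weights, the methods' t-test and leaving out each array. Sums over markers not called were added after seeing the data. A few more genes were named after seeing their values and are marked as picked. Proteins were not aligned, as no protein sequences were used here. Some items of the lists are not reported here.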

Additional observations from a re-analysis of the deposited data

How the results depend on the processing

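The differences of *Cybb*, *Cyba*, *Ncf4*, *Rac1* and *Rac2* were below 0 in all 15 alternatives, that of *Ncf1* in 12. Beyond the spread between arrays, centring on the median moved *Ncf4* to -1.88 and *Rac2* to -1.12. Quantile normalization gave *Cyba* -0.82, *Ncf1* 0.23, *Ncf4* -1.25 and *Rac2* -0.69. Cyclic loess gave *Cybb* -4.70, *Cyba* -0.78, *Ncf1* 0.12, *Ncf4* -1.21 and *Rac2* -0.73. Centring on the brighter genes gave *Cybb* -4.58, *Cyba* -0.67, *Ncf1* 0.22, *Ncf4* -1.10, *Rac1* -0.0267 and *Rac2* -0.34, with a median of pathway genes of 0.37. Leaving out 1 array gave *Cybb* -5.40 to -4.90, *Cyba* -1.40 to -1.10, *Ncf1* -0.65 to -0.21, *Ncf4* -1.81 to -1.57, *Rac1* -0.83 to -0.30 and *Rac2* -1.01 to -0.83.

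Over all genes, 527 rose and 1851 fell. Higher calls were 279 after median centring, 6966 after centring on the brighter genes and 324 among genes above the median signal only. Lower calls were 733 after quantile normalization, 876 after cyclic loess and 910 after centring on the brighter genes. Leaving out 1 array gave 76 to 1012 higher and 544 to 2611 lower. It gave 286 higher without *Rbx1*&*Sag*-deficient replicate 1, 1012 without replicate 2, and 122, 77 and 76 higher with 814, 544 and 605 lower without control replicates 1, 2 and 3. Pathway genes called higher numbered 0 after median centring, 26 after centring on the brighter genes, 1 among genes above the median signal and 0 to 4 with 1 array left out. Those called lower numbered 12 after quantile normalization, 13 after centring on the brighter genes and 7 to 27 with 1 array left out. The methods' t-test with Benjamini-Hochberg called 7 genes higher and 23 lower on log2 values, 6 and 20 on linear values, and 0 pathway genes either way. At its unadjusted threshold it called 7 pathway genes higher and 30 lower on log2 values, and 5 higher and 31 lower on linear values. The causes were not tested, and dim signals near background limit every fold.

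Same-numbered arrays did not pair: their residuals correlated at 0.01, 0.11 and 0.02, and 1 of 3 *Rbx1*&*Sag*-deficient arrays correlated best with its own number. With the replicate block, 534 genes rose and 2010 fell, and 0 pathway genes rose and 21 fell. The differences of the 6 subunits were the same with it.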
